A study of Mus musculus with 8 samples.

Results

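The genes described here encode integrins, laminins and the proteins that tie them into basement membranes, measured in embryonic mouse kidneys with and without p53. They were chosen by symbol, as integrin alpha and beta subunits and laminin chains together with nidogens (Nid1, Nid2), perlecan (Hspg2), agrin (Agrn), nephronectin (Npnt), the Fraser complex genes Fras1, Frem1 and Frem2, fibronectin (Fn1) and integrin-linked kinase (Ilk). Of the 17305 genes that could be named on the array, 41 were members, with 65 probes. Of 12000 genes with a probe bright enough to be tested, 35 were members, with 50 tested probes. Both groups were C57BL/6 embryonic kidneys of embryonic day 15.5. One was labelled p53 null and the other p53 wild type, and the labels state neither the null allele nor how many embryos each RNA came from. RNA of both genotypes was hybridised together on each of 8 arrays, in opposite dyes. The submitters call the 3 replicates biological. Replicate 1 has 4 arrays and the others have 2, and null RNA is in Cy5 on 4 of the 8. A ratio below 0 means less signal from the null kidney. Ratios are log2 values, and a mean ± SD is over the 3 replicates (n = 3).

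Integrins are receptors made of 1 alpha and 1 beta subunit that bind matrix proteins outside the cell and link them to actin inside it. Laminins are trimers of an alpha, a beta and a gamma chain that assemble into the sheet of a basement membrane, where nidogens, perlecan and agrin join them to collagen IV and to cells. In the embryonic kidney the integrin of alpha8 and beta1 on mesenchymal cells binds nephronectin laid down by the ureteric bud, and loss of this pair, or of the Fraser complex that holds nephronectin in the basement membrane, impairs bud invasion and can leave no kidney.

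Replicate 1 was hybridised on slide 1 and replicates 2 and 3 on slide 2, and values are therefore given by replicate for the members on which the results turn. Wherever the slides differ, the slide and the RNAs of its replicates cannot be told apart. The targeted gene Trp53 had ratios of −1.08, −0.47 and −0.45 in the 3 replicates on its brighter probe, and 0.16 ± 0.13 on a second probe; the labels do not say whether either lies in the deleted part. The deposited files of slide 2 number the wild-type RNA alike for replicates 2 and 3 and the null RNAs differently. The SD over probes of the log2 difference between these wild-type channels was 0.136 and 0.142 in the 2 dyes, against 0.170 and 0.237 between repeat arrays of replicate 1, so the wild-type signals of replicates 2 and 3 were at least as close as repeats of 1 RNA. The null channels of these replicates differed by 0.183 and 0.199, against 0.230 and 0.154 between repeat arrays of replicate 1, and were thus also about as close as repeats. Whether replicates 2 and 3 share an RNA was not settled, and if they do, their ratios are not independent. Over all probes the ratios of replicates 2 and 3 had a correlation of 0.93, and those of replicate 1 had 0.06 and −0.15 with them. Markers of the kidney's own compartments were present in both genotypes on both slides. Well above background were 8 of 8 nephron progenitor, 10 of 10 stromal and 10 of 11 ureteric epithelium genes. Podocyte genes were so for 9 of 9 on slide 1 and 7 of 9 on slide 2. Markers of other tissues were found too, with 6 of 7 skeletal muscle genes throughout. Liver genes gave 3 of 6 on slide 1, and 5 in null and 2 in wild type on slide 2. Adrenal genes gave 4 of 7 on slide 1 and 2 on slide 2 in both genotypes.

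RefSeq promoter windows (GRCm38.p6, 250 bases ending just before the start of transcription) were matched for 27 of the 41 members, in 33 windows. The following 5 each hold a motif named below and belong to members on which the results turn. Itgb5 was lower in all replicates. On their brightest probes Hspg2, Frem2 and Nid1 were below 0 in replicates 2 and 3 and above it in replicate 1. Ilk had the opposite signs. For Frem2 the sign in replicate 1 held neither over dyes nor on its second probe. Capitals mark the core letters of the hypoxia-inducible factor motif, ACGTG or GCGTG on either strand, in Itgb5, Hspg2 and Ilk, and the p53 half-site motif in Frem2 and Nid1. The windows lie at chr16:33829415-33829664 (plus strand, Itgb5), chr4:137468553-137468802 (plus, Hspg2), chr7:105736340-105736589 (plus, Ilk, the more upstream of 2 windows), chr3:53657356-53657605 (minus, Frem2) and chr13:13437352-13437601 (plus, Nid1).
Itgb5: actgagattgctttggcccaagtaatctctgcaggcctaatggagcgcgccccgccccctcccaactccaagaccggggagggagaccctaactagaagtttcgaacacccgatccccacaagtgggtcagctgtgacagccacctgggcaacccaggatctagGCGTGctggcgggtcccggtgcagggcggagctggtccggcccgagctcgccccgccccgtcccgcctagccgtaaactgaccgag
Hspg2: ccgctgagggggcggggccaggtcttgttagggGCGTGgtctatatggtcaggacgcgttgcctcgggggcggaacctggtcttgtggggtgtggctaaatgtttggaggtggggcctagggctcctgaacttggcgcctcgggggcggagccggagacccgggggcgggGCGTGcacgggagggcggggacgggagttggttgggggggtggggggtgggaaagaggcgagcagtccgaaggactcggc
Ilk: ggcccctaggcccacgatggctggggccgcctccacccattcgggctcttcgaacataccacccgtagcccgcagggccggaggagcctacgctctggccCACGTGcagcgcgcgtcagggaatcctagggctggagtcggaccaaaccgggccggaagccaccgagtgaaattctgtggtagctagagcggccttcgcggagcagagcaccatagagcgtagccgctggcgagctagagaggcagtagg
Frem2: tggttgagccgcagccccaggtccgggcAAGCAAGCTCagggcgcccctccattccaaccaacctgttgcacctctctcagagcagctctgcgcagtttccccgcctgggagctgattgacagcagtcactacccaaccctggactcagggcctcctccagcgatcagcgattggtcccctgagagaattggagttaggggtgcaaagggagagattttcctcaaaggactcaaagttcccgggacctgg
Nid1: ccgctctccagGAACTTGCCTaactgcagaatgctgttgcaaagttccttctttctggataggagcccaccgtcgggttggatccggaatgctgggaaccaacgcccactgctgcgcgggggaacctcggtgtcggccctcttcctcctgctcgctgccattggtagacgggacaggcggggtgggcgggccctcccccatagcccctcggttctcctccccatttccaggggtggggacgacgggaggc
Either form of the hypoxia-inducible factor core stood in 10 of the 33 member windows (30.3%) and in 38.6% of all 32851 windows. In Ilk the 2 matches are the 2 strands of a single stretch. The p53 half-site stood in 3 of 33 (9.09%), against 7.13% of all windows. The windows of Itga1, Itga8, Itgav, Itgb1 and Lama2 held neither motif, nor did the other window of Ilk. These are matches of letters only.

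As a group, the members stood below the array average. The median ratio of the 35 tested members was −0.21, against 0.00 over all 12000 genes. Of the 35, 26 had a mean below 0, against 5898 of the 12000 genes. By replicate the members' median was −0.13, −0.23 and −0.08, with −0.02, 0.02 and 0.03 over all genes. No member passed the threshold of an adjusted p of 0.05 (limma, Benjamini-Hochberg over 20865 probes), nor did any of the 12000 genes (0% called). At an unadjusted p under 0.05 there were 8 members lower and 0 higher, against 8.93% of all genes lower and 9.24% higher. The 8 were Fn1, Itgb5, Lama4, Nid2, Itga1, Itgb4, Itgb1 and Lama2. As RNA came from kidney tissue, fewer cells of a type and less RNA per cell cannot be told apart in any of these ratios.

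Of the 35, 13 were lower in all 3 replicates (background 19.7% of all genes), and 1, the epithelial beta subunit gene Itgb6, was higher in all 3 (background 20.4%). The sign of Itgb6 in replicate 1 did not hold over dyes. Another 8 were higher in replicate 1 and lower in both others, where all genes gave 19.5%, and 8 were lower in replicate 1 and higher in both others, where all genes gave 25.9%. Among these last 8, Lamb3 and Itga2b were well above background on slide 2 only in null, the genotype in which they were higher there. The remaining 5, Itga3, Itga5, Itga6, Lamb2 and Npnt, differed in sign between replicates 2 and 3. The share of members lower in every replicate was thus 37.1% and the share higher in every replicate 2.86%, and neither was tested against the background. Among the 13 were Fn1, Nid2, the integrin genes Itga1, Itga4, Itga9, Itgb1, Itgb4 and Itgb5, and the laminin genes Lama1, Lama2, Lama4 and Lamb1. Their sign held over dyes in each replicate for Fn1, Nid2, Itga1, Itga9, Itgb1, Itgb4, Itgb5, Lama2 and Lama4. For the rest of the 13 it did not, as with Itga4 and Lama1 in replicate 3 and Lamb1 in replicate 1. With array median centring in place of loess, which put the median of all genes at 0.15, the means of Itga3, Itga5, Itga8, Itga9 and Nid1 were above 0, so the direction of these 5 depends on the scaling.

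**Figure D1:**
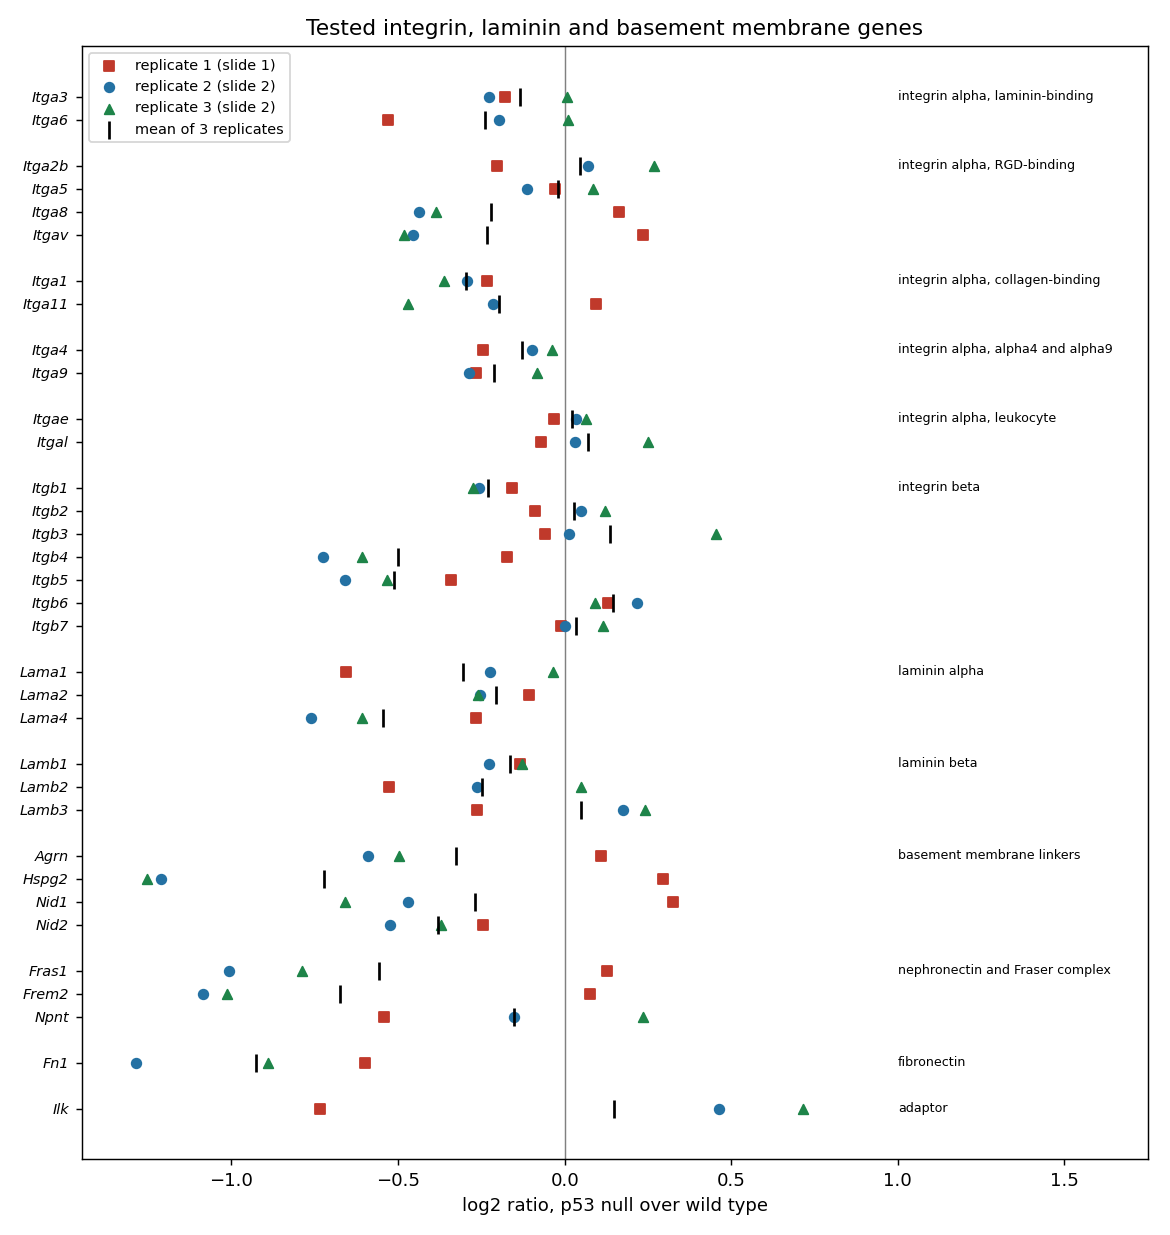
Log2 ratio of null over wild type (horizontal axis) for 34 of the 35 tested members (vertical axis, ordered by role), with a symbol for each replicate and a bar for the mean of the 3. Fn1 lies furthest to the left by its mean of −0.93, while for Hspg2, Fras1, Frem2 and Ilk the square of replicate 1 lies on the other side of 0 from both symbols of slide 2.

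Fibronectin had the lowest mean of the members on their brightest probes; Hspg2 was lower with the mean of a gene's probes (−0.72 against −0.68) and without replicate 1 (−1.23 against −1.09), and Frem2 with null in Cy3 only (−0.83 against −0.77). Fn1 encodes a glycoprotein of the interstitial matrix that integrins with alpha5, alpha8 or alphav bind through its RGD motif. Its ratios were −0.60, −1.29 and −0.89, and all 8 arrays were below 0, from −1.41 to −0.47. The mean was −0.93 ± 0.34, or 0.527 of the wild-type level (limma, adjusted p = 0.279). The other 2 tested Fn1 probes had −0.81 ± 0.13 and −0.29 ± 0.04, also below 0 in each replicate, and the last of these is dim, where the background offset compresses ratios. The arrays of replicate 1 lay between −0.79 and −0.47 and those of slide 2 between −1.41 and −0.67, so the slides overlapped and no array reached 0.

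Of the 7 tested integrin beta subunit genes, Itgb1, Itgb4 and Itgb5 were lower in all 3 replicates and Itgb6 was higher in all 3. Itgb5, whose product pairs with alphav in a vitronectin receptor, had −0.34, −0.66 and −0.53 and a mean of −0.51 ± 0.16, which is 0.702 of the wild-type level. All 8 arrays lay between −0.69 and −0.29. Itgb4, the partner of alpha6 in the laminin receptor of hemidesmosomes, had −0.17, −0.72 and −0.61 (mean −0.50 ± 0.29), and its second probe had −0.51 ± 0.17. Slide 2 thus showed the lower values for both genes and replicate 1 the same sign. Itgb1, the common partner of most alpha subunits in the kidney, had −0.16, −0.26 and −0.28 (mean −0.23 ± 0.06). Its second probe had 0.24, −0.30 and −0.50, so in replicate 1 the 2 probes of Itgb1 differed in sign and on slide 2 they did not. Itgb5 and Itgb4 had an adjusted p of 0.279 in limma and Itgb1 had 0.280. The other 4 tested beta genes, Itgb2, Itgb3, Itgb6 and Itgb7, had means from 0.03 to 0.15. In replicate 1 Itgb2, Itgb3 and Itgb7 were below 0 (−0.09, −0.06 and −0.01) and in replicates 2 and 3 they were not. Itgb2 and Itgb7 are subunits of leukocyte integrins and Itgb3 of the platelet fibrinogen receptor. On slide 2 wild-type signal was well above background on 0 of 4 arrays for the brighter Itgb6 probe and on 3 of 4 for the second, which had −0.35, 0.19 and 0.26, with another sign in replicate 1.

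Among the alpha subunits no gene was higher in all 3 replicates (20.4% of all genes), and 3 of 12 tested were lower in all 3 (19.7%). Itga1, which encodes a collagen receptor subunit, had −0.23, −0.29 and −0.36 (mean −0.30 ± 0.06, adjusted p = 0.279 in limma). All 8 arrays were below 0 on this probe. Its other 2 probes were not well above background on enough arrays to be tested. The brighter of these was well above background in both genotypes on 4 of 4 arrays of slide 1, and had 0.12, −0.09 and −0.11. The dimmer had 0.02, −0.14 and −0.15. The sign of Itga1 in replicate 1 thus depends on the probe. Itga9 had −0.27, −0.29 and −0.08 (mean −0.21 ± 0.11), but its second probe had −0.24, −0.05 and 0.08 (mean −0.07). Itga4 had −0.25, −0.10 and −0.04. The laminin receptor subunits Itga3 and Itga6 were below 0 in replicates 1 and 2 and at 0.01 in replicate 3. Itga3 had −0.18 and −0.23 before that value (mean −0.13 ± 0.12) and Itga6 had −0.53 and −0.20 (mean −0.24 ± 0.27). For both genes the spread between replicates was about as large as the mean. Itga5, a fibronectin receptor subunit gene, had −0.03, −0.11 and 0.09, and Itga11, a collagen receptor subunit gene, had 0.09, −0.21 and −0.47. The leukocyte subunits Itgae and Itgal had means of 0.02 and 0.07, and the platelet subunit gene Itga2b had 0.05. All 3 were below 0 in replicate 1 (−0.03, −0.07 and −0.20) and above it in replicates 2 and 3.

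Itga8, the nephronectin receptor subunit on which bud invasion depends, differed in sign between slides. It had 0.16 in replicate 1 and −0.44 and −0.39 in replicates 2 and 3 (mean −0.22 ± 0.33, adjusted p = 0.459 in limma). The other 2 Itga8 probes repeated this order, with 0.13, −0.40 and −0.34 on one and 0.05, −0.07 and −0.16 on the other. All 4 arrays of replicate 1 were above 0 and all 4 of slide 2 below it, so the values of the 2 slides did not overlap. Its ligand gene Npnt had the opposite order, with −0.54, −0.15 and 0.24 (mean −0.15 ± 0.39). The second Npnt probe had −0.32, −0.06 and −0.02, with 1 sign throughout, and the third had −0.31, −0.22 and 0.10. All 3 Npnt probes had their lowest value in replicate 1.

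**Figure D2:**
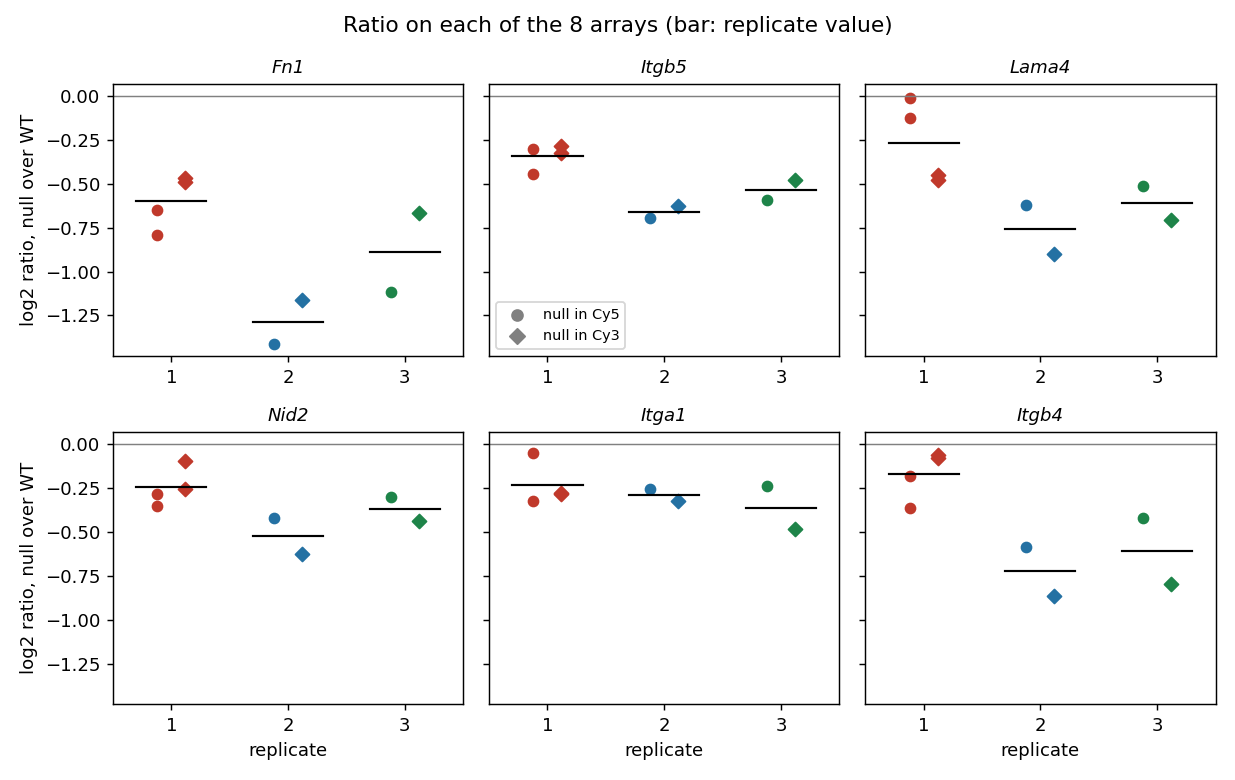
Log2 ratio of null over wild type (vertical axis) on each array, by replicate (horizontal axis), for the 6 members with the smallest unadjusted p among those of 1 sign in all replicates and dye orientations; circles carry null RNA in Cy5, diamonds in Cy3, and bars are replicate values. Every point lies below 0, and for Fn1, Itgb5, Lama4, Nid2 and Itgb4 the points of replicate 1 lie nearer to 0 than the bars of replicates 2 and 3.

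Of the 7 tested laminin genes, 5 were lower in all 3 replicates and 0 higher (19.7% and 20.4% of all genes), with a median of −0.21. Lama4, a chain of vascular and mesenchymal basement membranes, had −0.27, −0.76 and −0.61 (mean −0.54 ± 0.25, or 0.686 of wild type, adjusted p = 0.279 in limma). Its other 2 probes had −0.42 ± 0.20 and −0.40 ± 0.22, and all 3 probes were below 0 in each replicate. Lama1, the alpha chain of early nephron basement membranes, had its lowest value in replicate 1, with −0.66, −0.23 and −0.03 (mean −0.30 ± 0.32). Lama2, the alpha chain of muscle basement membranes, had −0.11, −0.25 and −0.26 (mean −0.21 ± 0.09). The size of such dim genes depends on the background offset: with the scanner program's log ratio Lama2 had −0.79, Lamb1 −0.79, Itga1 −0.75 and Lama1 −0.59, and with an offset of 0 they had −0.57, −0.41, −0.57 and −0.44. Lamb2, which replaces Lamb1 in the mature glomerular basement membrane, had −0.53, −0.26 and 0.05 (mean −0.25 ± 0.29). Lamb3 had −0.26, 0.17 and 0.24, and was not well above background in wild type on any array of slide 2.

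The commonest beta chain, Lamb1, had −0.13, −0.23 and −0.13 (mean −0.16 ± 0.06, adjusted p = 0.325 in limma). In replicate 1 its arrays gave −0.04 and 0.17 with null in Cy5 and −0.29 and −0.37 with null in Cy3. That value thus had no sign that held over dyes. The Lamb1 signal itself was very different between the slides. The normalised log2 intensity on slide 2 minus that on slide 1 was −3.45 in null and −3.41 in wild type. The median change over all genes was 0.27 in null and 0.15 in wild type, and 56 and 58 of 12000 genes went down by more than 3 log2 units. Lama5, the alpha chain of the ureteric and glomerular basement membrane, differed in the same way, by −3.21 and −3.16. It was well above background in both genotypes on 4 of 4 arrays of slide 1 and on 0 of 4 of slide 2, and so was not tested. The 2 genotypes thus differed alike between the slides, and the Lamb1 ratios of replicates 2 and 3 rest on dim spots. Itgb1 moved between the slides by −1.80 and −1.70 on one probe and by 0.63 and 1.27 on the other.

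Of the 4 genes that link the parts of the basement membrane, Nid2 was lower in all 3 replicates, and Nid1, Hspg2 and Agrn were lower in replicates 2 and 3 and higher in replicate 1. Nid2 had −0.25, −0.52 and −0.37 (mean −0.38 ± 0.14, or 0.768 of wild type, adjusted p = 0.279 in limma), and all 8 arrays were below 0. Nid1, the other nidogen, had 0.32, −0.47 and −0.66. Hspg2 had 0.30, −1.21 and −1.25, and Agrn had 0.11, −0.59 and −0.50. For Hspg2 and Nid1 each of the 4 arrays of replicate 1 was above 0 and each of the 4 of slide 2 below it. For Agrn the arrays of replicate 1 gave 0.12 and 0.33 with null in Cy5 and −0.002 and −0.02 with null in Cy3, so that value had no sign that held over dyes. The means of Nid1, Hspg2 and Agrn, −0.27 ± 0.52, −0.72 ± 0.88 and −0.33 ± 0.38, were each smaller than their SD.

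The Fraser complex genes Fras1 and Frem2, which encode large proteins on the epithelial side of the basement membrane, had similar values. Fras1 had 0.13, −1.01 and −0.79 (mean −0.56 ± 0.60) and Frem2 had 0.08, −1.09 and −1.01 (mean −0.68 ± 0.65, adjusted p = 0.304 in limma). In replicate 1 the 2 dye orientations of Frem2 gave 0.30 and 0.35 with null in Cy5 and −0.20 and −0.15 with null in Cy3, so its value there had no sign that held over dyes. The same was true of Fras1, with −0.10 and −0.18 against 0.42 and 0.37. The second Frem2 probe had −0.21, −0.60 and −0.46. Itgav, the subunit that pairs with Itgb5, also differed in sign between slides, with 0.23, −0.46 and −0.48.

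Ilk showed the largest difference between slides in the other direction. Integrin-linked kinase binds the tails of beta subunits and joins them to actin through PINCH and parvin proteins. Its ratios were −0.73, 0.46 and 0.72 (mean 0.15 ± 0.78, adjusted p = 0.815 in limma). All 4 arrays of replicate 1 lay between −0.91 and −0.65 and the 4 of slide 2 between 0.32 and 0.90, and the ranges did not overlap. By genotype, log2 intensity changed from slide 1 to slide 2 by 0.66 in null and −0.67 in wild type. For Hspg2 the changes were −0.93 in null and 0.60 in wild type, for Frem2 −1.17 and −0.04, for Fras1 −1.22 and −0.20, for Nid1 −1.22 and −0.33, and for Itgav −1.09 and −0.38. On these probes of the 5 genes the lower ratio on slide 2 thus went with less null signal there. In Hspg2 it also went with more wild-type signal, while in Fras1, Nid1 and Itgav wild-type signal was lower too, by less. The second Frem2 probe changed by −1.83 in null and −1.51 in wild type, so the size of such changes depends on the probe.

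**Figure D3:**
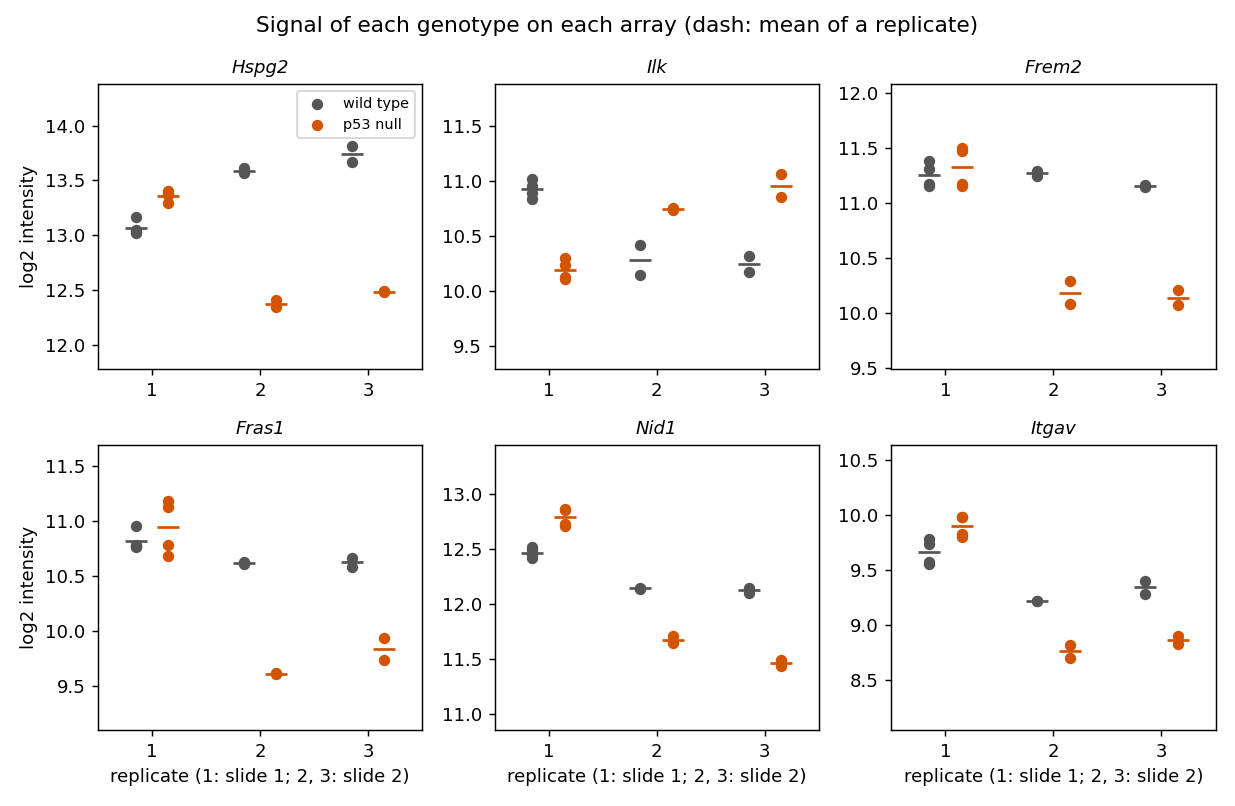
Normalised log2 intensity (vertical axis, each panel spanning the same range) of wild-type (grey) and null (orange) RNA on every array, by replicate (horizontal axis), for the 6 members whose ratio differed most between the slides; dashes are replicate means. In Hspg2, Frem2, Fras1, Nid1 and Itgav all null points lie below the wild-type points in replicates 2 and 3, and the null mean lies above the wild-type mean in replicate 1, where the points of Frem2 and Fras1 overlap. In Ilk the order is the reverse.

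**Figure D4:**
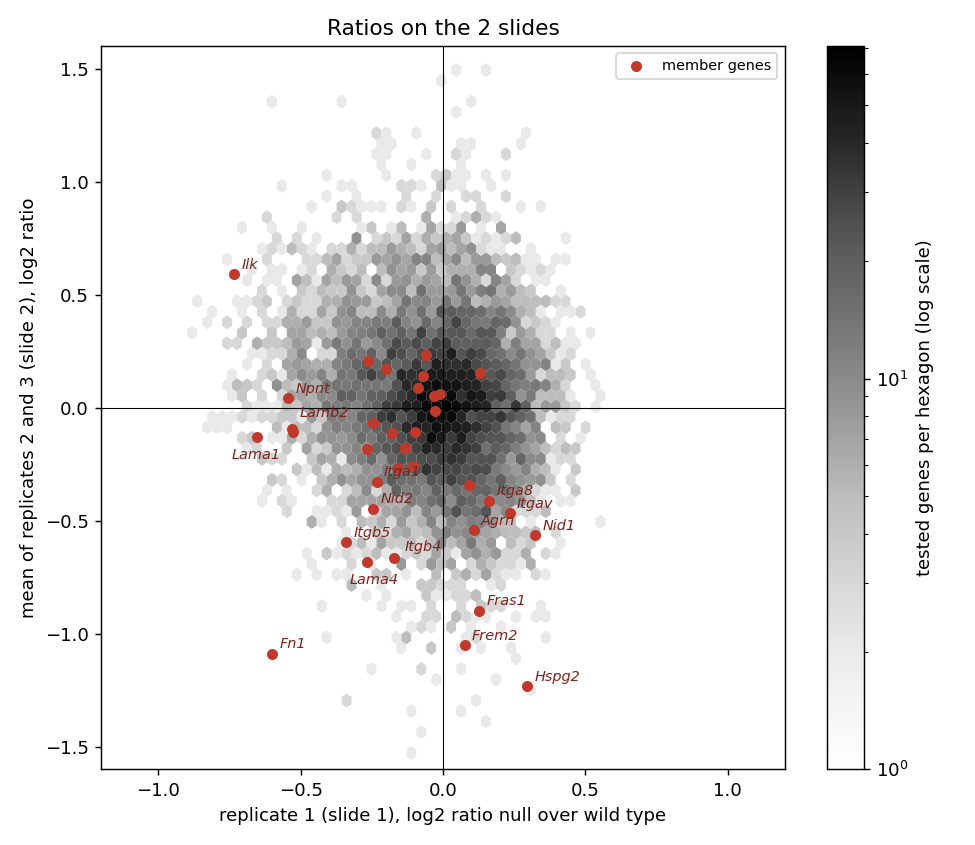
Ratio in replicate 1 (horizontal axis) against the mean of replicates 2 and 3 (vertical axis), both log2 null over wild type; red points are members and grey hexagons count the tested genes, of which 11912 are inside the axes and 88 outside. Fn1, Itgb5, Lama4, Itgb4, Nid2 and Itga1 lie below 0 on both axes, Hspg2, Frem2 and Fras1 at the lower right and Ilk at the upper left.

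Read on slide 2 alone, many members passed the threshold, as did most genes. Without replicate 1, 18 members were lower and 4 higher with an adjusted p under 0.05 in limma, where 27.2% of all genes were called lower and 32.9% higher. The 4 called higher were Ilk, Lamb3, Itgb3 and Itga2b. On slide 2 Lamb3 and Itga2b were well above background in null (4 and 3 of 4 arrays) and on 0 arrays in wild type, so they passed the filter there through the genotype in which they were higher. Of the 18 called lower, Hspg2 had the smallest adjusted p (5.07e-15), followed by Frem2 (1.89e-13) and Fn1 (1.23e-12). The share of members called lower was above the background and the share called higher was below it. These p-values rest on 2 replicates of 1 slide that may share an RNA.

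When all 8 arrays were fitted with the replicate as a random effect, Fn1, Itgb5 and Nid2 were called lower (limma, adjusted p = 0.0274, 0.0274 and 0.0454), where 2.78% of all genes were called lower. Lama4 and Itgb4 had 0.0525 and 0.0583 there. The observations of that fit are arrays, tied within a replicate by a common correlation, and not 8 independent RNAs. Replicates 2 and 3, which may share an RNA, count in it as separate. With the slide as a fixed effect, 19 members were called lower and 0 higher. Of all genes 43.2% were called there in either direction, with 22.7% called lower. The spread in that fit comes from replicates 2 and 3 alone.

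Another list held genes of proteins that act with integrins inside the cell or beside them. Of its 30 tested genes 10 were lower in all 3 replicates and 6 higher, where all genes gave 19.7% and 20.4%. None passed the threshold in limma. At an unadjusted p under 0.05 there were 7 lower and 1 higher, against 8.93% and 9.24% of all genes. With the replicate as a random effect 2 passed, Tns3 and Tln1, where 5.18% of all genes did. The median of the 30 was −0.05. The 3 lower genes with the smallest p were Tns3, a tensin that binds beta tails (−0.37 ± 0.05), Sdc4, a syndecan of focal adhesions (−0.62 ± 0.26), and Fermt2, the integrin activator kindlin-2 (−0.27 ± 0.03), each with an adjusted p of 0.279 and below 0 in each replicate. For Sdc4, 1 of the 8 arrays had no value. Lims2, a PINCH protein that binds Ilk, was the one gene higher over all replicates and dye orientations (0.15 ± 0.02, adjusted p = 0.341). Of 19 other matrix and basement membrane genes, among them the collagen IV chains, 7 were lower in all 3 replicates and 0 higher (median −0.05). Over all genes these shares were 19.7% and 20.4%.

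Several other gene lists differed between replicate 1 on slide 1 and replicates 2 and 3 on slide 2. All 18 genes of hypoxia and glycolysis were lower in replicates 2 and 3, with medians of −0.06, −2.00 and −2.12 in the 3 replicates. The log2 of their summed intensity ranged from 16.6 to 16.8 in null and 16.6 to 17.0 in wild type on slide 1, and from 16.1 to 16.9 in null and 18.5 to 18.6 in wild type on slide 2. The 10 tested macrophage and leukocyte genes were all higher in replicates 2 and 3 (medians −0.05, 0.47 and 0.55), and their log2 sum on slide 2 was 12.3 to 12.6 in null and 11.9 in wild type. The 5 erythroid genes had medians of −0.31, 1.59 and 1.85, and the 10 endothelial genes −0.09, 0.48 and 0.63. The 3 liver genes had −0.06, 1.03 and 0.88, and the 6 smooth muscle genes, all below 0 in replicate 1, had −0.55, 0.12 and 0.51. Stromal genes were lower on both slides, as Fn1 and Lama4 were, with medians of −0.26, −0.29 and −0.45. Of the 10, 7 were lower in all 3 replicates (19.7% of all genes). Medians were also below 0 in each replicate for 8 nephron progenitor genes (−0.12, −0.23 and −0.13), 3 of them lower in all 3. The same held for 10 ureteric epithelium genes (−0.04, −0.09 and −0.05), again with 3, and for 2 adrenal genes (−0.09, −0.07 and −0.04). The log2 sum of the stromal genes was 16.3 to 16.4 in null and 16.7 to 16.8 in wild type on slide 1, and 16.2 to 16.4 and 16.6 to 16.7 on slide 2. The part of these lists in the members' ratios was not tested.

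**Figure D5:**
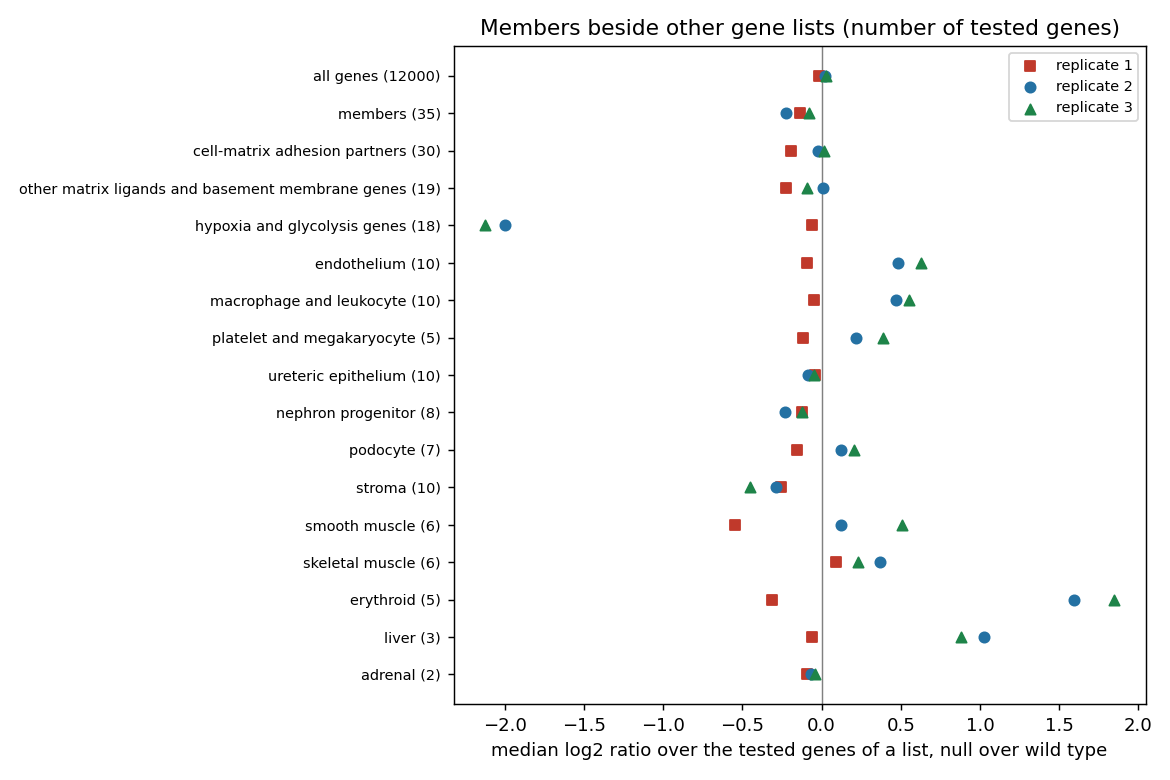
Median log2 ratio of null over wild type (horizontal axis) in each replicate for all genes, the members and the other gene lists (vertical axis, number of tested genes in brackets). The members' medians lie between −0.23 and −0.08, the stromal medians between −0.45 and −0.26, and the hypoxia and glycolysis medians at −0.06 in replicate 1 and at −2.00 and −2.12 in the others.

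The 6 members without a ratio were Itga2, Itga7, Itgam, Itgax, Lama5 and Lamc3, whose probes were not well above background on enough arrays of each replicate (for Lama5, on slide 2). No probe could be named here for 5 further genes, Itga10, Itgb8, Lama3, Lamc1 and Frem1, and they are not analysed here. The macrophage subunits Itgam and Itgax were well above background on no array in either genotype. Of the 10 tested members with more than 1 tested probe, 0 had probes whose means differed in sign.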

How the data were processed

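Per the labels' protocols, dye was incorporated directly into cDNA from total RNA. The deposited files give the linear intensity of every spot and of its background. Per the file headers, they also give the log10 of red over green from the scanner program. The program was Agilent Feature Extraction, with version 10.5.1.1 in the headers and 6.1 in the submitters' processing notes. Median spot signals were background-corrected with normexp (offset 50) and normalised by loess in limma 3.58.1 (R 4.3.3). The 1639 control spots had weight 0 and were then left out, and outlier-flagged spots were set to missing. Spots of a probe were averaged, dye-swap arrays turned, and the 2 dye orientations averaged within a replicate, with no replicate dropped from a tested probe. The between-slide levels come from an Aquantile normalisation across arrays. Tested were 20865 of 41174 probes, those where, in every replicate, 1 genotype was well above background on a share of at least 0.5 of the arrays. Each probe's 3 values were tested against 0 with limma's moderated fit (two-sided, 4.22 degrees of freedom), adjusted over all tested probes. A sign permutation of 3 values cannot go below p = 0.25. The fit was checked on simulated data.

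A gene is represented by its brightest tested probe. Names come from RefSeq accessions in the GRCm38.p6 annotation, which named 25097 probes. The file headers give mm9 for the array design, so no probe coordinates are printed. Described in full were members chosen by role, up to 6 per direction with the smallest p among those of 1 sign in all replicates and dye orientations, up to 6 with the largest difference between slides, and up to 3 adhesion genes per direction. The members and lists were chosen with earlier results of these data known. Of the tested members, 1 is not reported here by name and stayed in all counts, medians and tests. The number of arrays limits the precision. Nothing in the labels says more on the source of the replicates, so p-values measure the spread between these RNAs only.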

Additional observations from a re-analysis of the deposited data

Results flagged for a closer look

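For 1 of 35 tested members, a single array lay apart from the other 7: Itgae, a lymphocyte integrin subunit with dim signal, had a ratio of −0.186 on the second array of replicate 1, with null in Cy3. The gap to the next array was 0.569 of the range over 8 arrays, more than Dixon's limit for this number of arrays. Chance alone marks about 1 in 20 such sets.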

How the results depend on the processing

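The median of the members stayed below 0 under all 19 alternatives and kept to within the spread between replicates under 18. Median centring in place of loess gave −0.0163, where the median of all genes was 0.15, so the members differed from it by −0.17. Under that setting Itga9 (0.0304), Itga3 (0.0436) and Itga5 (0.14) turned above 0, and Nid1 and Itga8 did so by less than 1 SD. The count lower in the replicates used was 13 to 21 when 1 replicate was left out (21 without replicate 1), and the count higher was 1 to 9 (9 without replicate 1). With no replicate left out, the count lower, 13 in the report, was 9 with median centring. It was 11 with the strict filter on dim probes, which left 28 members tested, and 13 to 17 under the other settings. The count of members higher in all 3, 1 in the report, was 2 with the scanner program's log ratio, 2 with no filter on dim probes, 0 with the strict filter, 0 with the mean of a gene's probes, 2 and 3 with the first and second array pair of replicate 1, 4 with null in Cy5 only and 0 with null in Cy3 only. Leaving out 1 replicate gave 0 to 22 members and 0 to 11699 probes past the threshold, the highest without replicate 1. With slide as a fixed effect 19 members and 8521 probes passed, and with the replicate as a random effect 3 members and 965 probes. No member passed under the other alternatives. The cause of these differences was not tested. Dim probes near background limit Itga2b, Itgb6, Lamb3 and Lamb1 on slide 2. The test of ratios within arrays is itself paired.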
